A study of Drosophila melanogaster with 21 samples.

Results

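The scrib- RasACT and scrib- NACT tumours, both with JNK signalling left active, were compared with each other. The members are the 3 arrays labelled as RasACT overexpressing scrib mutant tissue and the 3 labelled as NotchACT overexpressing scrib mutant tissue, in each case without bskDN, which makes 6 of the 21 arrays of the series. Each array measured RNA from mosaic eye-antennal imaginal discs of Drosophila melanogaster larvae of the third instar, collected 5 days after egg deposition. All genotypes were made in the eye-antennal disc with ey-FLP recombination on the FRT82B chromosome arm, so a tumour disc holds clones homozygous for the scrib1 allele beside tissue of other genotypes, and the UAS transgene is driven by tub-GAL4 in the clones only. All larvae were in a w1118 background. The Ras group carried scrib1 clones with the activated Ras transgene (RasACT, labelled RasV12), the Notch group scrib1 clones with the activated Notch transgene (NACT, labelled NotchICD), and neither carried the dominant-negative JNK transgene bskDN. The groups used beside them were the same tumours with bskDN (3 arrays each) and the FRT control with wild type clones (3 arrays). The 6 arrays were named Ras 1, 2 and 3 and Notch 1, 2 and A, after their titles.

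Scribbled is a polarity protein of the basolateral cortex, and epithelial cells that lack it activate the Jun kinase (JNK) cascade, in which Basket (bsk) is the kinase that phosphorylates the AP-1 transcription factors. Activated Ras signals through the MAP kinase cascade to ETS factors and induces its own inhibitors, among them argos (aos) and sprouty (sty), while the activated Notch intracellular domain enters the nucleus with Suppressor of Hairless and induces the bHLH repressors of the Enhancer of split complex and related genes. Each oncogene is known to turn scrib- clones of the eye-antennal disc into overgrown tumours, and in the normal eye disc Ras recruits photoreceptors whereas Notch is needed for growth, boundaries and the spacing of neurons.

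The arrays of the Notch group were not equally unlike each other. Notch 2 and Notch A differed with an SD of 0.139 log2 over the 18769 probe sets that are not controls, and the 3 arrays of the Notch tumours with bskDN differed in the same way, the 4 pairs lying between 0.139 and 0.169. The 17 other pairs of arrays within a group of the series lay between 0.212 and 0.599. The labels do not say whether such arrays share RNA, so Notch 2 and A were averaged and counted as 1 sample, as were the 3 arrays of Notch with bskDN. The Notch group thereby had n = 2 and the Ras group n = 3. Whether samples of a group came from separate collections of larvae is not stated, so the p-values measure the spread between arrayed samples only. That spread was pooled over the tumours with and without bskDN, with 5 residual degrees of freedom. Notch with bskDN, as 1 sample, added nothing to it.

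Notch 2 and A also carried RNA that the other 4 arrays lacked. The salivary gland glue gene ng2 was at 8.03 and 7.71 log2 in Notch 2 and A and at 2.17, the floor of the normalization, in Notch 1 and in Ras 1, 2 and 3. Pig1, another gene of the salivary gland, was at 10.03 and 9.92 in Notch 2 and A and at 2.17 in the other 4. The ecdysone-induced gene ImpE2 went the other way, at 2.17 in both Notch 2 and A against 11.16 in Notch 1 and 10.43 to 11.48 in the Ras arrays. Of 7 fat body markers, Lsp2, Fbp1, Fbp2 and apolpp were highest in the same pair among the 6 arrays, whereas LpR2 was highest in Notch 1, at 10.02, and bmm was higher in every Ras array, at 7.66 to 8.32 against 6.90 to 7.49. Fbp2 was at 8.48, 11.04 and 11.18 in Notch 1, 2 and A and at 4.07 to 4.50 in the Ras arrays. The summed level of 7 fat body markers was 10.86 to 12.84 log2 in the Notch arrays and 9.66 to 10.26 in the Ras arrays, and that of 10 salivary gland markers was 9.46 to 9.91 against 6.48 to 8.24, so for both lists every Notch array lay above every Ras array. None of these 17 markers was called different, and the salivary gland genes Sgs1, Sgs5 and fkh were at 2.17 to 2.47 in all 6 arrays. The sums of 13 haemocyte markers, at 12.83 to 13.94 in Ras and 13.37 to 13.66 in Notch, and of 13 muscle markers, at 11.84 to 12.43 and 11.80 to 12.11, overlapped between the groups. The part of these transcripts in the results was not tested. Where a value is given without Notch 2 and A, the Notch group is Notch 1 alone, and its spread is taken to be that of the other groups. Pig1 and ImpE2 were chosen for mention after their values were seen.

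**Figure D1:**
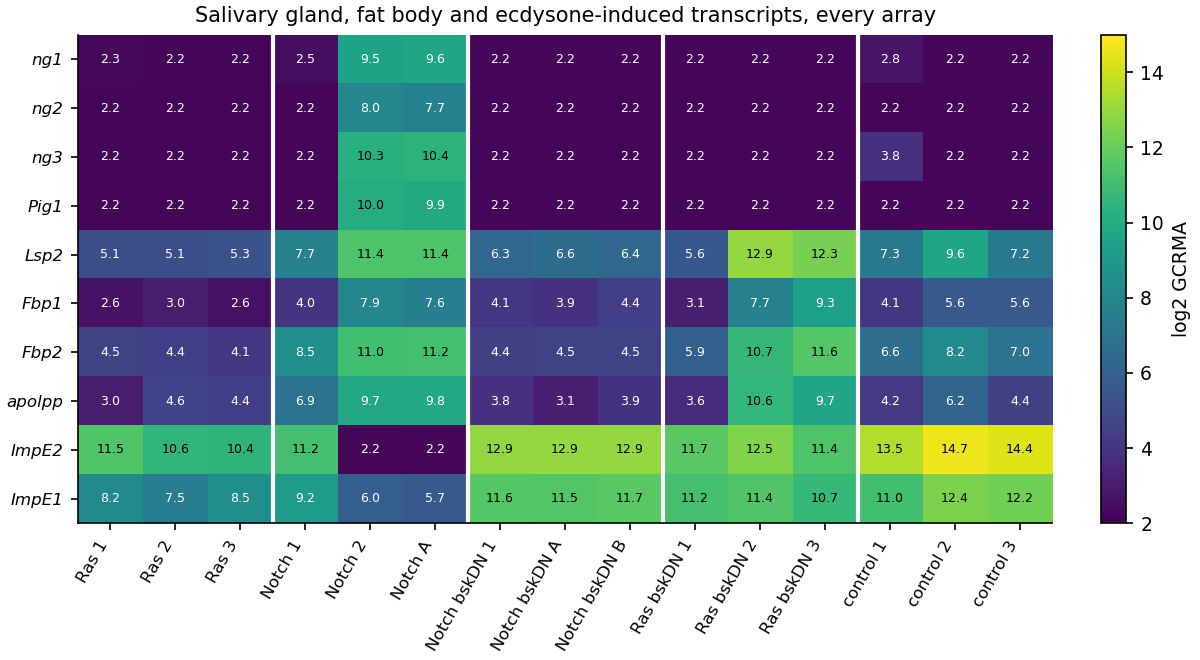
Levels (log2 GCRMA, colour and number) of salivary gland (ng1 to ng3, Pig1), fat body (Lsp2 to apolpp) and ecdysone-induced (ImpE2, ImpE1) transcripts in each array of the Ras and Notch tumours, the same tumours with bskDN and the control. Notch 2 and A alone hold the salivary gland transcripts at 7.71 or above and ImpE2 at 2.17.

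Most of the 9 disc markers had clear signal in all 6 arrays, and ct was the dimmest, at 4.29 to 6.10. The lowest value of eya, a retinal determination gene, was 12.21, that of the neuronal gene elav 10.13, and that of the antennal and leg gene Dll 8.14. The targeted gene bsk was at 11.94, 12.02 and 11.75 in the Ras arrays and 11.48, 11.60 and 11.57 in the Notch arrays, against 15.75 to 15.82 in the 6 arrays with bskDN, whose transgene the probe set also measures. The level of scrib, at 10.74 to 11.69 in the 6 arrays, checks no label, since the allele is present in clones and the site of its lesion relative to the probes is not given in the sources used here. Signal of 5 log2 or more was found for 7476 to 7553 probe sets in each of the 6 arrays, and 40.2 to 42.7% lay at the floor of 2.17. That share leaves out probe sets whose flat low values lie above 2.17.

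Between the tumours, 123 of 18769 probe sets were called different (0.655%), at a limma adjusted p under 0.05 and a difference over 1 log2. The Ras tumours were higher for 86 of them (0.458%) and the Notch tumours for 37 (0.197%). In all 123 the 3 Ras arrays lay wholly above or below the 3 Notch arrays. Counting every array as a sample of its own gave 369 calls (1.97%), 223 higher in Ras (1.19%) and 146 higher in Notch (0.778%), and these held all of the 123. A filter that kept 7778 probe sets with signal gave 290 calls (3.73%), 186 higher in Ras (2.39%) and 104 higher in Notch (1.34%). The 6 arrays fitted alone gave only 12. Leaving out Ras 1 or Ras 2 gave 42 calls each and leaving out a Ras bskDN array, which bears only on the estimate of the spread, gave 40 to 69. Without Ras 3 there were 383, of which 180 were higher in Ras and 203 higher in Notch, and without Notch 1 there were 183, of which 84 and 99. The count, and which tumour had more higher genes, therefore depended on single arrays and on how the spread was estimated, while none of the 123 changed direction in any fit. Of the 123, 31 were called whichever array was left out, 24 of them higher in Ras, and 7 (CG12607, CG14795, CG3328, CG6753, Cpr49Ad, cmpy and dpr18) were called in every fit run at the level of probe sets, of which CG12607 and cmpy were named after their values were seen. Among the 7, the SD in Notch was 0.0025 for CG6753, 0.0065 for CG12607 and 0.0137 for Cpr49Ad, and that in Ras was 0.0054 for CG3328. Flat low values of this kind lower the SE, and their part in these calls was not tested. In 28 of the 123 the lower group mean was under 3 log2. Counted by genes, each with 1 probe set, 96 of 11981 were called (0.801%), 72 higher in Ras (0.601%) and 24 higher in Notch (0.200%). Of the 33 named genes called, 11 stayed called whichever array was left out (CG13606, CG14795, CG15522, CG3328, CG5217, CG6753, Cpr49Ad, Jhbp7, dpr18, qua and yellow-e). The other 22 lost the call without at least 1 array, 20 of them without Ras 1, 20 without Ras 2, 14 to 19 without a given Ras bskDN array, 10 without Notch 2 and A together, and 6 without Notch 1. The 10 were E(spl)m2-BFM, repo, Cpr56F, sty, toy, Wnt6, wb, yuri, lncRNA:CR33963 and CG8245. In these bulk discs, fewer cells of a type and less RNA per cell cannot be told apart.

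**Figure D2:**
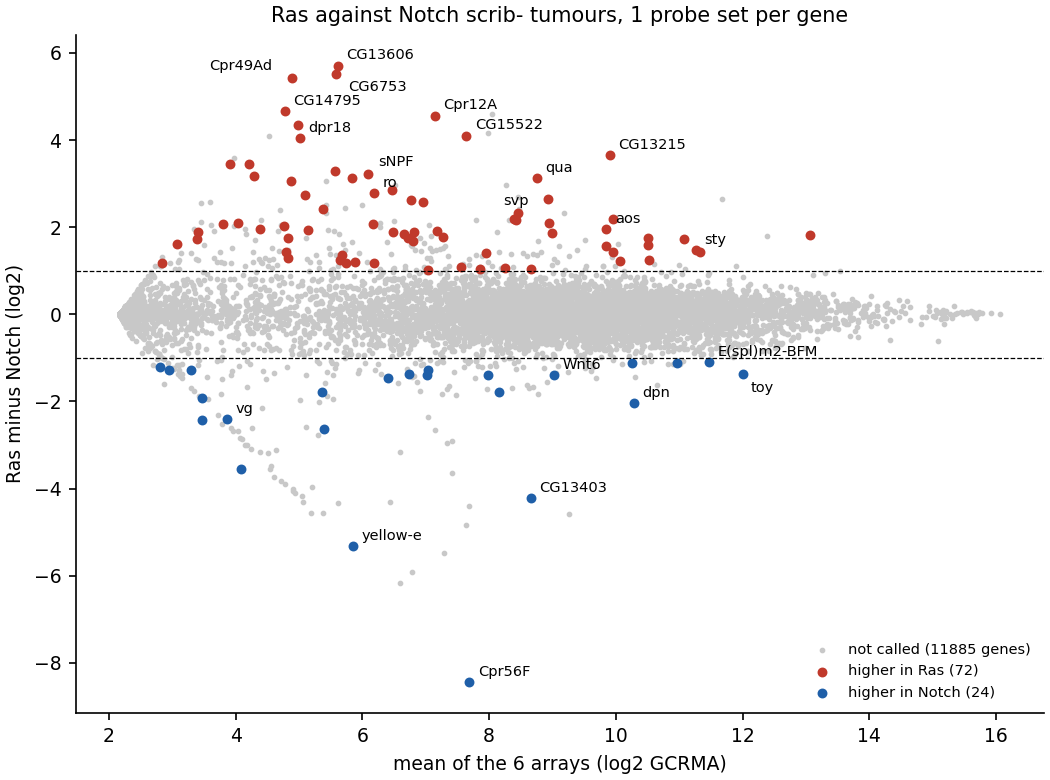
Difference between the tumours (log2, Ras minus Notch) against the mean of the 6 arrays (log2 GCRMA), 1 point per gene. The 72 genes called higher in Ras are red, the 24 called higher in Notch are blue, and dashed lines mark a difference of 1 log2 either way.

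Among the genes that Ras signalling induces as its own brakes, aos and sty were higher in the Ras tumours. aos, a secreted antagonist of the EGF receptor, was at 10.55, 10.73 and 11.09 log2 in Ras 1, 2 and 3 and at 8.64, 9.06 and 9.03 in Notch 1, 2 and A. Its difference was 1.95 log2 (SE 0.195, adjusted p = 0.021), or 3.87-fold. The 3 control arrays had 9.85, 10.09 and 10.07, between the tumours.

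sty, an intracellular inhibitor of receptor tyrosine kinase signalling, was at 11.67, 12.02 and 12.23 in the Ras arrays and 10.37, 10.54 and 10.74 in the Notch arrays. The groups did not overlap, and the difference was 1.47 (SE 0.188, adjusted p = 0.040). Another probe set of sty gave 1.59 (adjusted p = 0.016). Without Ras 2 the adjusted p was 0.094 for aos and 0.15 for sty, and without Ras 1 it was 0.052 and 0.050. Without Notch 1 it was 0.026 for aos and 0.075 for sty, and without Notch 2 and A it was 0.020 and 0.062.

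Mkp3, the phosphatase that inactivates ERK, was at 9.58, 9.75 and 9.83 against 8.70, 8.90 and 8.99. Its difference of 0.90 (adjusted p = 0.039) passed the p threshold but stayed under 1 log2, so it was not called. Without Notch 2 and A it was 1.02. A dimmer probe set of Mkp3 gave 0.92 (adjusted p = 0.29). edl, a small SAM domain protein that acts on the ETS factors Yan and Pointed, was at 9.30, 9.25 and 9.34 in the Ras arrays and 6.52, 7.70 and 7.75 in the Notch arrays, Notch 1 being the lowest. The difference of 2.17 had an adjusted p of 0.071, which was 0.0063 with every array as its own sample. Without Notch 2 and A, which leaves only the lowest Notch array, the difference was 2.77 (adjusted p = 0.0023). Ets21C, an ETS factor that also answers to JNK, was at 7.60, 7.99 and 7.73 against 6.01, 6.61 and 6.66, a difference of 1.45 (adjusted p = 0.058), and 1.76 (adjusted p = 0.020) without Notch 2 and A.

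Of 14 measured genes of the Ras outputs list, 2 were called higher in Ras, none higher in Notch and 12 not called. Over all genes, 0.601% were called higher in Ras. The list's median difference was 0.10, beside 0.00 over all genes. The 0.00 includes genes without signal, since 5668 probe sets were at the floor on all 6 arrays. With every array as its own sample, or with the filter, 4 were called higher in Ras, edl and Ets21C joining aos and sty, beside 1.54% and 2.46% of all genes. The other members ranged down to -0.83 for cic, a repressor that MAP kinase removes, which was at 9.29, 9.84 and 10.25 in Ras and 10.69, 10.50 and 10.59 in Notch (adjusted p = 0.31). Cbl, a ubiquitin ligase that downregulates the EGF receptor, was lower in every Ras array, at 9.90, 9.95 and 9.94 against 10.30, 10.25 and 10.29, and its difference of -0.35 (adjusted p = 0.040) was under 1 log2. The EGF receptor antagonist kek1 differed by 0.56 (adjusted p = 0.53) and rau by 0.19 (adjusted p = 0.45). The repressor aop (Yan) differed by -0.11 (adjusted p = 1.0).

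**Figure D3:**
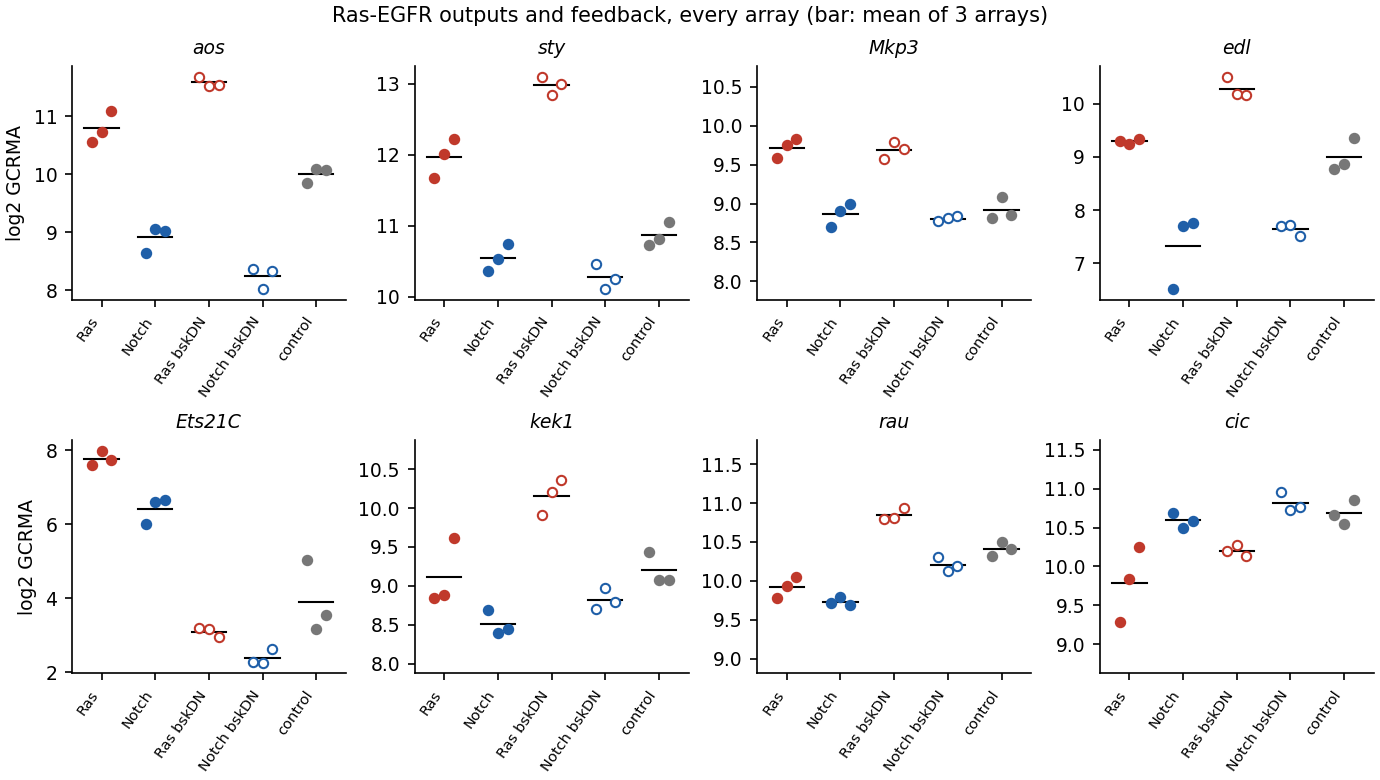
Level (log2 GCRMA) of 8 genes of the Ras outputs list in every array, filled for the tumours without bskDN, open for those with bskDN and grey for the control, with a bar at the mean of the 3 arrays. All Ras points lie above all Notch points for aos, sty, Mkp3, edl and Ets21C, and below them for cic.

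None of the 10 measured core genes of the cascade was called, beside 0.801% of all genes. Egfr, the receptor itself, stood out among the 10 and was lower in Ras. It was at 8.66, 8.91 and 9.31 in the Ras arrays and 10.07, 10.03 and 10.05 in the Notch arrays, so the groups did not overlap. The difference of -1.10 had an adjusted p of 0.099, and of 0.0044 with every array as its own sample. The adaptor drk was 0.41 higher in Ras (adjusted p = 0.14), and the MAP kinase kinase Dsor1 differed by 0.16 (adjusted p = 0.81). Among the 4 measured ligand genes the values were close. The ligand spi was at 12.80 to 12.97 in Ras and 12.63 to 12.89 in Notch, and the largest difference in the list was -0.28, for S (Star), which carries spi to the Golgi.

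On the Notch side, dpn was the clearest difference. Deadpan is a bHLH repressor of neural stem cells and a direct target of Notch there. It was at 9.20, 9.08 and 9.47 in the Ras arrays and 11.26, 11.25 and 11.39 in the Notch arrays, with 10.01 in the control. The difference was -2.04 log2 (SE 0.157, adjusted p = 0.010), or 4.11-fold higher in Notch, and was -2.01 (adjusted p = 0.023) without Notch 2 and A. It was lost at the threshold without Ras 1, at an adjusted p of 0.054. wor, another neural stem cell gene, was at 2.49 to 3.43 in Ras and 2.50 to 4.01 in Notch. The 17 brain and glia markers, dpn itself among them, had sums of 13.70 to 14.09 against 14.12 to 14.37. The other called marker of that list, repo, was 1.06 higher in Ras.

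vg, the wing selector gene whose boundary enhancer Notch drives in the wing disc, was at 2.59, 2.58 and 2.55 in the Ras arrays and 4.43, 5.29 and 5.73 in the Notch arrays. The Ras arrays and the control, at 2.66, were near the floor, so the difference of -2.40 (adjusted p = 0.045) depends on where the background correction puts low values. Its other probe set was at the floor in both groups. vg lost its call without Ras 1 (adjusted p = 0.15), Ras 2 (0.17) or Notch 2 (0.061).

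E(spl)m2-BFM, a Bearded family gene within the Enhancer of split complex, was at 10.99, 10.91 and 10.81 in Ras and 11.82, 12.15 and 12.16 in Notch. The difference was -1.09 (SE 0.129, adjusted p = 0.033), and it was -0.92, under 1 log2, without Notch 2 and A. Without Ras 1 or Ras 2 the adjusted p was 0.11 and 0.13. It was the only one of 8 measured Bearded family genes called, beside 0.801% of all genes. The list's median was -0.09. Ocho was 0.76 lower in Ras (adjusted p = 0.25), while Brd, at 11.47, 11.54 and 11.44 in Ras and 11.33, 10.69 and 10.75 in Notch, and E(spl)m4-BFM lay the other way, with differences of 0.46 and 0.25 (adjusted p = 0.66 and 0.81).

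Of 7 listed bHLH repressors of the Enhancer of split complex 5 were measured. None of the 5 was called, beside 0.801% of all genes, so the count says little about them. The differences of the 5 ran from -0.84 to 0.44, with a median of -0.57. E(spl)m3-HLH was at 12.85, 12.89 and 12.82 in Ras and 13.17, 13.63 and 13.72 in Notch (-0.57, adjusted p = 0.27). E(spl)mbeta-HLH was at 11.13, 11.13 and 11.75 against 12.12, 12.22 and 12.23 (-0.84, adjusted p = 0.25). E(spl)m7-HLH was at 10.21, 10.08 and 10.79 against 10.97, 11.43 and 11.42 (-0.84, adjusted p = 0.53). These 3 had all Notch arrays above all Ras arrays, while E(spl)mdelta-HLH had the reverse, at 11.72, 11.75 and 11.81 in Ras and 11.40, 11.22 and 11.26 in Notch (0.44, adjusted p = 0.20). Over all genes, 20.8% had groups that did not overlap in one direction or the other. E(spl)m5-HLH was at 2.24 to 2.63 in every array.

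eyg, a Pax gene that Notch needs for eye growth, was lower in every Ras array, at 5.36, 5.55 and 7.03 against 9.05, 8.79 and 8.67. The difference of -2.91 had an adjusted p of 0.091. Ras 3 was far from the other Ras arrays for this gene, and without it the difference was -3.43 with an adjusted p of 0.0049. Of the 11 measured genes of the list of other Notch-responsive genes, dpn and vg were called higher in Notch, beside 0.200% of all genes, and none higher in Ras. With every array as its own sample, or with the filter, eyg joined them and edl and peb were called higher in Ras, which made 3 and 2. peb (hindsight), a zinc finger factor that Notch induces in follicle cells, was at 8.65, 9.07 and 9.61 in Ras and 7.49, 6.76 and 7.14 in Notch (1.89, adjusted p = 0.091). Of the 13 measured pathway components none was called, beside 0.801% of all genes. The extremes of the 13 were kuz, the protease that cleaves Notch, at -0.62 (adjusted p = 0.53) and the ubiquitin ligase neur at 0.20 (adjusted p = 0.88).

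**Figure D4:**
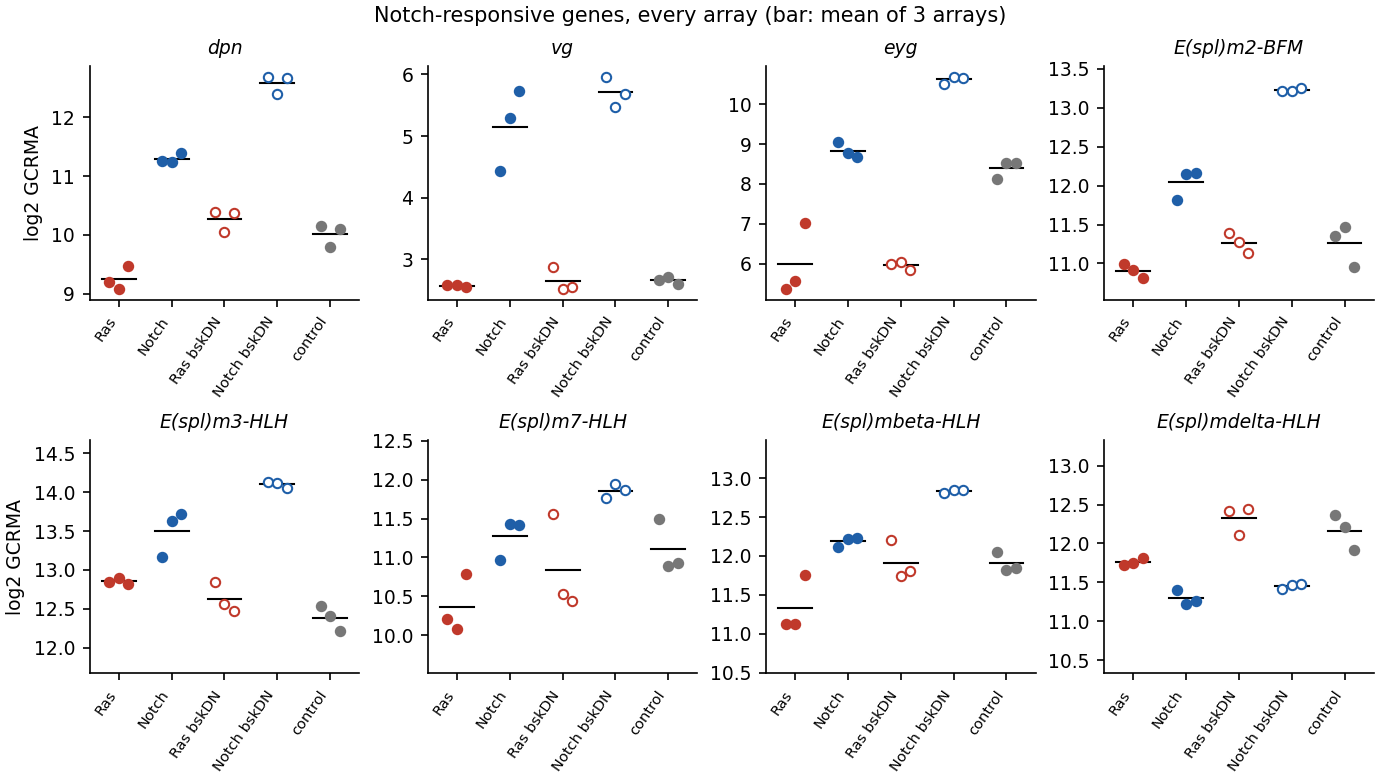
Level (log2 GCRMA) of 8 Notch-responsive genes in every array, filled for the tumours without bskDN, open for those with bskDN and grey for the control, with a bar at the mean of the 3 arrays. dpn, vg and E(spl)m2-BFM were called higher in Notch, and E(spl)mdelta-HLH has all Ras points above all Notch points.

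Of the genes of photoreceptor recruitment, svp and ro were higher in Ras. svp, a nuclear receptor of outer photoreceptors that Ras signalling is known to switch on, was at 9.34, 9.54 and 9.76 in Ras and 7.62, 7.39 and 6.90 in Notch, a difference of 2.17 (SE 0.182, adjusted p = 0.013). Another of its probe sets gave 1.96 (adjusted p = 0.030). ro, a homeodomain factor of photoreceptors, was at 7.52, 7.92 and 7.60 against 5.54, 4.24 and 4.23 (2.79, adjusted p = 0.049). These 2 were called of 17 measured members, beside 0.601% of all genes called higher in Ras, and the list's median was -0.11. All Ras arrays lay above all Notch arrays for 4 members and below them for 5, beside 12.2% and 8.64% of all genes. The call on svp was lost without Ras 2 (adjusted p = 0.072), and that on ro without Ras 1 (0.15) or Ras 2 (0.18) and, narrowly, without Notch 2 or A (0.051 each).

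Of 17 neuronal differentiation genes 1 was called, beside 0.801% of all genes. nerfin-1, a zinc finger factor that keeps neurons differentiated, was at 9.83, 10.08 and 9.77 in Ras and 7.77, 8.22 and 8.32 in Notch (1.87, adjusted p = 0.033, and 0.12 without Ras 1 or without Ras 2). elav, the pan-neuronal marker, was at 10.22, 10.53 and 10.48 against 10.36, 10.13 and 10.31, a difference of 0.12 (adjusted p = 0.94). repo, the transcription factor of glia, was at 8.88, 8.90 and 8.60 against 7.83, 7.81 and 7.46 (1.06, adjusted p = 0.038). In the control repo was at 8.67, near the Ras arrays. Without Notch 2 and A its difference was 0.97 (adjusted p = 0.10), and without Ras 1 or Ras 2 the adjusted p was 0.13 and 0.14. The retinal gene toy, a Pax6 homologue at the top of eye specification, was higher in Notch, at 11.26, 11.13 and 11.64 in Ras against 12.85, 12.52 and 12.59 (-1.36, adjusted p = 0.040). The control was at 12.63, near the Notch arrays, so it was Ras that lay away from the control. A further probe set of toy gave -1.49 (adjusted p = 0.017) and another, dimmer one gave -0.79 (adjusted p = 0.50). In the main fit toy was the only called member of 20 retinal determination genes, beside 0.801% of all genes. With every array as its own sample 4 were called higher in Notch and 1 higher in Ras. With the filter these were 3 and 1. Over all probe sets 1.97% and 3.73% were called in these fits. The call on toy was lost without Ras 1, Ras 2 or Notch 1 (adjusted p = 0.14, 0.12 and 0.074), or without Notch 2 and A (0.057).

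Wnt6, a Wnt ligand, was the only called gene of 3 measured in the Wingless list, beside 0.801% of all genes. It was at 8.20, 8.35 and 8.43 in Ras and 9.71, 9.72 and 9.71 in Notch. The difference was -1.39 (SE 0.152, adjusted p = 0.027), and the adjusted p was 0.10 without Ras 1, 0.11 without Ras 2 and 0.067 without Notch 2 and A. qua (Quail), a villin-like protein that bundles actin filaments, was the only called gene of 13 in the cytoskeleton list, beside the same 0.801%. It was at 10.19, 10.34 and 10.53 in Ras and 7.50, 6.83 and 7.09 in Notch, 8.72-fold higher in Ras (3.12 log2, SE 0.177, adjusted p = 0.0039), and remained called whichever array was left out.

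The JNK pathway itself showed no called gene among 18 measured, beside 0.801% of all genes. With every array as its own sample, or with the filter, 1 was called higher in Ras, beside 1.54% and 2.46% of all genes. The list's largest difference was 1.45. puc, the phosphatase that JNK induces against itself, was at 10.96, 11.07 and 11.41 in Ras and 10.64, 11.25 and 11.24 in Notch, so the groups overlapped (0.20, adjusted p = 0.85). In the matching tumours with bskDN it was at 9.57 to 9.74 and 8.63 to 8.95. Ilp8, a relaxin-like hormone released by damaged and tumorous discs, was at 11.50, 11.74 and 11.30 against 10.64, 10.56 and 10.54 (0.92, adjusted p = 0.056), and at 5.71 in the control. egr, the fly TNF, was at 9.29, 9.12 and 9.31 against 8.28, 8.55 and 8.53 (0.83, adjusted p = 0.078), and a dimmer probe set of egr was called, at 7.73, 7.47 and 7.46 against 6.22, 6.48 and 6.20 (1.28, adjusted p = 0.045). Its receptors grnd and wgn differed by 0.40 and 0.29 (adjusted p = 0.59 and 0.37). Over the list all Ras arrays lay above all Notch arrays for 7 genes and below them for 1, beside 12.2% and 8.64% of all genes, and its median was 0.19.

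The largest differences lay outside the pathway lists. Cpr56F, a chitin-binding cuticle protein, was at 4.19, 3.11 and 2.90 in Ras and 11.44, 12.28 and 12.19 in Notch, a difference of -8.44 log2 (SE 0.907, adjusted p = 0.026). The control had 2.21. Without Ras 1, Ras 2 or Notch 2 and A its adjusted p was 0.079, 0.11 and 0.067. yellow-e, of the yellow family of pigment and cuticle genes, was at 3.09, 2.87 and 3.60 against 8.46, 8.69 and 8.42 (-5.32, SE 0.212, adjusted p = 0.0013), and its call held whichever array was left out. The uncharacterised CG13403 was at 6.43 to 6.57 in Ras and 10.48 to 11.03 in Notch (-4.22, adjusted p = 0.013), all above the control at 3.53.

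Other genes higher in Notch were moderate in size. wb, a laminin alpha chain of the basement membrane, was at 7.15, 7.08 and 7.69 in Ras and 9.28, 8.93 and 8.86 in Notch (-1.78, adjusted p = 0.049, and 0.16 and 0.17 without Ras 1 or Ras 2, and 0.075 without Notch 2 and A). yuri, CG3649, CG7720 and the noncoding RNA lncRNA:CR33963 differed by -1.40, -2.64, -1.78 and -1.39. The control was at 8.97 for wb and 8.82 for yuri, near the Notch means of 9.02 and 8.69. For CG3649 and CG7720 the control, at 7.65 and 7.46, lay above the Notch means of 6.67 and 6.20 and above the Ras means. For lncRNA:CR33963 it was at 6.77, between the tumours. Without Notch 2 and A the adjusted p was 0.13 for yuri and 0.11 for lncRNA:CR33963. CG3328 had the smallest p of all, 5.9e-07, at a difference of -1.47, because Ras 1, 2 and 3 were all at 5.67 and Notch 1, at 7.13, nearly equalled the mean of Notch 2 and A, at 7.36 and 6.94. Its SE was 0.0084, and with every array as its own sample the adjusted p was 0.00016. Ras with bskDN was at 5.68, 5.69 and 5.67 and the control mean was 7.58. Whether 5.67 is the background level of this probe set was not tested.

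Several of the genes higher in Ras had clear signal there and values near the floor in Notch. Cpr49Ad, another cuticle protein, was at 7.90, 7.46 and 7.45 in Ras and 2.19, 2.17 and 2.17 in Notch, with 2.17 in the control (5.42, SE 0.142, adjusted p = 0.00027). CG6753 was at 8.53, 8.45 and 8.02 against 2.83, 2.82 and 2.82 (5.51, adjusted p = 0.00075), and CG14795 at 7.19, 7.15 and 6.96 against 2.36, 2.57 and 2.46 (4.66, adjusted p = 0.00021). dpr18, of an immunoglobulin family of neuronal surface proteins, was at 7.08, 6.97 and 7.05 against 2.91, 2.98 and 3.12 (4.05, adjusted p = 0.00035). Since these Notch values sat at or near the floor, the size of the difference depends on the background correction.

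sNPF, the precursor of short neuropeptide F, was at 7.71, 8.15 and 7.37 in Ras and 4.78, 4.29 and 4.25 in Notch (3.22, SE 0.270, adjusted p = 0.013, and 0.063 without Ras 1). The cuticle protein gene Cpr12A was at 9.07, 9.32 and 9.66 against 4.29, 5.75 and 4.81 (4.56, adjusted p = 0.0086, and 0.054 without Ras 2). Jhbp7, named for a family of juvenile hormone binding proteins, was at 7.07 to 7.24 against 3.60 to 4.59 (3.29, adjusted p = 0.0015). CG13606, CG5217, CG15522, CG13215 and CG8245 differed by 5.71, 4.35, 4.10, 3.65 and 3.14 (adjusted p between 0.0021 and 0.040). For CG8245 it was 0.10 without Notch 2 and A.

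Other lists held no called gene, beside 0.801% of all genes called, so their counts say little about them. The differences of 16 cell cycle genes lay between -0.56 and 0.45. The medians of 11 glycolytic genes, 15 genes of the mitochondrial respiratory chain, 16 Hippo-Yki genes, 8 JAK-STAT genes and 20 polarity and junction genes were -0.22, 0.06, -0.27, -0.26 and -0.36. A p above the threshold does not show that these levels were equal. The median of 20 Polycomb and Trithorax genes was -0.46. The median of 0.00 over all genes includes many genes at the floor, so it is no like background for lists of expressed genes.

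The same genotype difference was measured in the tumours with bskDN, on other arrays but in the same fit. Each probe set had a single estimate of spread for both comparisons, so a call in both is not an independent repeat. There, 768 probe sets were called (4.09%), 539 higher in Ras (2.87%) and 229 higher in Notch (1.22%), but Notch with bskDN counts as 1 sample whose spread is taken to be that of the other groups. With further quantile normalization 474 were higher in Ras and 373 higher in Notch. Of the 123 probe sets called without bskDN, 81 were called in the same direction with it, which is 65.9% of the 123 and 10.5% of the 768, and none in the opposite one. dpn differed by -2.31 with bskDN, vg by -3.06, E(spl)m2-BFM by -1.97, aos by 3.34, sty by 2.70 and Mkp3 by 0.88.

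Whether bskDN changed the difference was tested as an interaction, the difference without bskDN minus that with it. It was called for 412 probe sets (2.20%), 103 positive (0.549%) and 309 negative (1.65%), and for 61 of the 123. With further quantile normalization 167 were positive and 234 negative. Of these 61, the difference was larger without bskDN for 24 and smaller for 37. For sNPF, Ras with bskDN rose to 10.08 to 10.34 and Notch with bskDN stood at 2.43 to 2.88, so the difference of 3.22 became 7.60 (interaction -4.38, SE 0.436, adjusted p = 0.0029). ro, svp, nerfin-1, repo and qua showed interactions of -3.41, -1.96, -2.68, -2.43 and -1.84 (adjusted p = 0.034, 0.016, 0.010, 0.0017 and 0.018), all with the difference larger when bskDN was present. In the neuronal list 9 of 17 genes had a called negative interaction, beside 2.13% of all genes, among them fne, an Elav-family RNA binding protein, whose difference was -0.93 without and 3.55 with bskDN. egr behaved likewise, with 0.83 and 3.37 (interaction -2.54, adjusted p = 0.0018).

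Other differences were near 0 with bskDN. Cpr49Ad stood at 2.18 in Ras with bskDN (difference -0.03, interaction 5.44, adjusted p = 6.2e-05). CG14795 and CG6753 had 0.10 and 0.51 with bskDN, Jhbp7 0.04 and CG13215 -0.01. On the Notch side yellow-e had -0.26 (interaction -5.06, adjusted p = 0.00054) and wb 0.39 (interaction -2.18, adjusted p = 0.034). Zip102B, a zinc transporter family gene, was 0.78 higher in Ras without bskDN, at 9.67 to 9.94 against 8.94 to 9.13, and 4.64 lower with it (interaction 5.42, adjusted p = 3.0e-05), since Ras with bskDN was at 3.85 to 4.13. For dpn, vg and Mkp3 the interaction was 0.27, 0.66 and 0.02 (adjusted p = 0.90, 0.84 and 1.0).

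**Figure D5:**
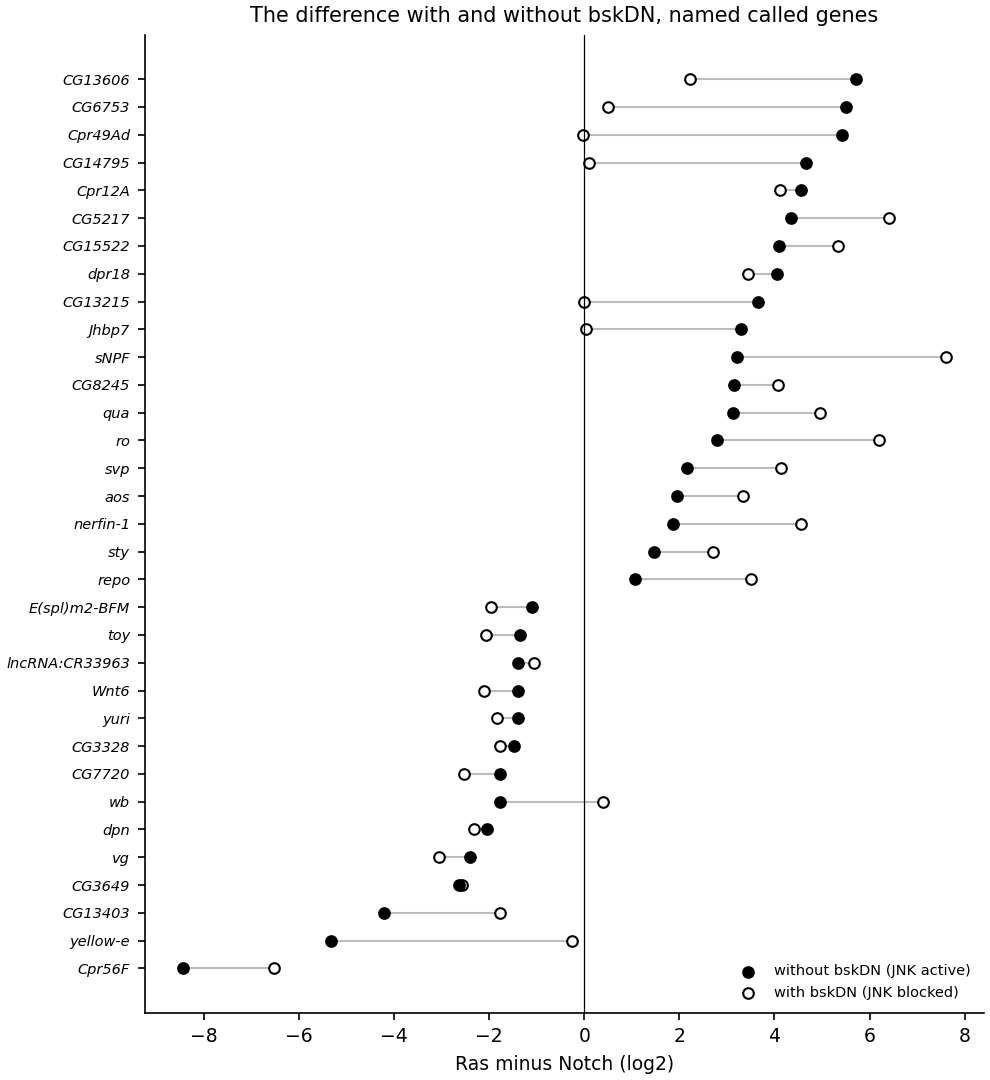
Difference between the tumours (log2, Ras minus Notch) for the 33 named genes called without bskDN, filled without and open with bskDN. CG14795, Cpr49Ad, CG13215, Jhbp7 and yellow-e move to near 0 with bskDN, while sNPF and ro move farther from it.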

How the data were processed

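The authors hybridised cRNA from 21 disc samples to Affymetrix Drosophila 2.0 arrays and deposited log2 values per probe set, made with GCRMA (background correction, quantile normalization and summary; version not given in the sources used here). Many low values share the lowest value, 2.17, which is called the floor here. Some probe sets had flat low values above it, such as CG6753 at 2.83 and CG12607 at 3.73 in each control array. Arrays have no count depth, and their number limits the precision.

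The 183 AFFX control probe sets were dropped, leaving 18769. Symbols came from the platform annotation and were checked against the RefSeq gene table, which changed none (13646 probe sets with 1 symbol, 402 with several, 4721 with none), and each gene was represented by its probe set of highest mean level in the 21 arrays. Several genes of the lists, such as those of the Ras and Notch transgenes, were not analysed here. Group means of the 12 arrays of the tumours with and without bskDN were estimated in limma (version 3.58.1, R version 4.3.3; lmFit and eBayes without a block, 5 residual degrees of freedom) after averaging Notch 2 with A and the 3 Notch bskDN arrays. The design had set all 12 as separate samples. The averaging was chosen after seeing the data, from the closeness of the arrays, with the count under the first design already known, so both counts are given. A probe set was called at a Benjamini-Hochberg adjusted p under 0.05 over all 18769 and over 1 log2, the study's thresholds. The fit was tested on simulated data.

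The arrays compared, the 39 gene lists and the tests were chosen with earlier results of these data known. Named genes are scrib and bsk, the 12 largest called differences each way whose groups do not overlap and whose higher mean is at least 6 log2, any member of the Notch, Ras and JNK lists, up to 5 called members of other lists, up to 4 members by level in lists of other tissues, and 5 interactions each way. Alternatives were 21 arrays, 6 arrays, a filter at 5 log2 in at least 3 arrays, quantile normalization, median centring, trend and robust options, array weights, a replicate block, mean probe sets, no fold threshold and leave-outs. Same-numbered Ras and Notch arrays had residual correlations of -0.261 (number 1) and 0.0954 (number 2), so the numbers were not taken as pairs.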

Additional observations from a re-analysis of the deposited data

Results flagged for a closer look

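For 28 named genes the difference between the Ras and Notch tumours was itself different with bskDN, by the limma interaction term at an adjusted p under 0.05 and over 1 log2. The values below are the difference without bskDN minus that with it, on the log2 scale, and each rests on Notch with bskDN as 1 sample.

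Positive interactions were 5.98 for CG4576, 5.44 for Cpr49Ad, 5.42 for Zip102B, 5.00 for CG6753, 4.56 for CG14795, 3.66 for CG13215, 3.49 for CG13606, 3.24 for Jhbp7 and 1.97 for Ilp8. For Ilp8 the Ras tumours were the higher ones without bskDN (0.92) and the lower ones with it (-1.05).

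Negative interactions among genes of neurons, photoreceptors and glia were -4.50 for nrv3, a subunit of the sodium pump, -4.48 for fne, -4.38 for sNPF, -3.41 for ro, -3.03 for peb, -2.68 for nerfin-1, -2.43 for repo and -1.96 for svp. The muscle genes Mlc1 and Act87E had -4.23 and -3.66, and the adhesion gene kirre -1.93. The TNF ligand egr had -2.54 and its receptor wgn -2.06. The matrix gene wb had -2.18 and the actin bundler qua -1.84. yellow-e had -5.06, CG15756 -5.67, CG4168 -5.08 and CG5217 -2.05.

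Mlc1 and Act87E are markers of muscle. Over the 6 arrays without bskDN all 13 muscle markers were uncalled between the tumours. With bskDN their summed level was 10.62 to 11.73 log2 in the Ras arrays and 9.89 to 10.10 in the Notch arrays. The fat body sum was 10.97, 13.60 and 13.43 in Ras bskDN 1, 2 and 3 and 10.72 to 11.12 in Notch with bskDN. The part of muscle or fat body in the interaction was not tested.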

How the results depend on the processing

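Of the fits run, none changed the direction of a called probe set, but the number called moved widely. Against 123 calls, the 12 arrays as separate samples gave 369, the 6 arrays alone 12, all 21 arrays 235, the filter 290, the filter with separate arrays 399, median centring 230, trend and robust options 70, and no fold threshold 247. A block for the replicate number gave 22, and 65 with separate arrays, and since the numbers were not shown to pair the samples a call lost under the block says nothing about its size. Leaving out 1 array gave 40 to 383, and 121 without Notch 2 and A. The share higher in Ras was 69.9%, 45.9% without Notch 1, 47.0% without Ras 3 and 81.0% without Ras 1. Quantile normalization gave 131, array weights 139 and mean probe sets 108 genes.

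The 412 interaction calls became 847 with separate arrays, 893 with the filter as well, 250 with the replicate block and separate arrays, and 1468 with no fold threshold, where the split turned to 1071 positive (73.0%) and 397 negative. Leaving out 1 array gave 279 to 559. With quantile normalization 41.6% were positive, against 25.0%. The 768 calls with bskDN became 1183 with separate arrays and 2260 with no fold threshold, where the split turned to 722 higher in Ras (31.9%) and 1538 higher in Notch. They were 619 to 788 with 1 array left out. With quantile normalization 56.0% were higher in Ras, against 70.2%. The 6 arrays alone and the block with averaged arrays gave no interaction. Calls without a fold threshold include very small differences near the floor. A dim probe set of CG4168 differed by -0.04 with bskDN, with an interaction of 0.04. It was at 2.44, 2.31 and 2.31 in the Notch bskDN arrays and at 2.31 in each Ras bskDN array. How many of the added calls were of this kind was not counted.

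The fits with separate arrays, the 2 that join them with the filter or block, and the leave-outs of Notch 2 with A and of bskDN arrays from the main comparison were chosen after seeing the data. The groups had 3 and 2 counted samples, and 1 for Notch with bskDN. Values near 2.17 bound no fold change.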
